A study of Mus musculus with 8 samples.

Results

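Periostin (Postn), the tenascins Tnc and Tnn, the thrombospondins Thbs1, Thbs2, Thbs3 and Thbs4, Sparc, Cthrc1 and Spon1 are 10 of the 32285 genes counted in these mouse bone libraries. They were taken by gene symbol, and each symbol named 1 row in all 8 count matrices. They were followed across 9 skeletal and vascular cell types, mouse by mouse, which gives 90 pairs of a gene and a cell type.

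The proteins are secreted into the extracellular matrix, where most of them act less as building blocks than as regulators of how cells attach to it and respond to growth factors, a role called matricellular. Periostin binds integrins and helps the crosslinking of collagen, and it is known from the periosteum, ligaments and other tissues under load. Tenascin-C and tenascin-W, the product of Tnn, are large glycoproteins found where bone and tendon form. The trimeric thrombospondin-1 and thrombospondin-2 bind CD47, CD36 and integrins, thrombospondin-1 can activate latent TGF-β, and the pentameric thrombospondin-3 and thrombospondin-4 belong with cartilage oligomeric matrix protein (Comp), a protein of cartilage and tendon. SPARC, or osteonectin, is an abundant collagen-binding protein of bone, Cthrc1 is a secreted protein linked to Wnt signalling, and spondin-1 (Spon1) is a matrix protein known from neural development.

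Bone and endosteal marrow cells came from the femurs and tibiae of 8 female mice, with the periosteum scraped off, the marrow flushed out and most haematopoietic cells depleted with antibodies. At 7 weeks and again at 13 weeks, the 2 control mice were Sox4fl/fl Sox11fl/fl Sox12fl/fl, and the 2 mutant mice carried the same floxed alleles plus OsxCre, a transgene whose Cre is driven in cells of the osteoblast lineage and can be shut off with tetracyclines, here by doxycycline food until 21 days of age. The controls carry no Cre, so the transgene itself and the loss of the SOXC genes (Sox4, Sox11 and Sox12) cannot be told apart. The comparison asks how SOXC loss in this lineage bears on gene expression in bone cells, and the present values add how the matricellular genes differ between cell types and between ages.

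Each mouse gave 1 droplet library with 81894604 to 156090286 unique molecular identifiers (UMIs), and replicate 1 was deeper than replicate 2 in every group. Of these, 59629 cells were kept, between 6410 and 8753 per mouse. Clusters were named from lists of marker genes as cells like osteoblasts (OB, 24544 cells), Lepr+ mesenchymal stromal cells (Lepr+ MSC, 3951), endothelial cells (3573), hypertrophic growth plate chondrocytes (hypertrophic GPC, 2554), Lepr+ osteoprogenitors (Lepr+ OP, 2495), preosteoblasts (preOB, 2316), other growth plate chondrocytes (GPC, 2032), pericytes (1004, in a cluster of 593 led by Rgs5 and one of 411 led by the smooth muscle genes Acta2 and Tagln) and Sca1+ mesenchymal stromal cells (Sca1+ MSC, 573). The Sca1+ MSC-like cells were few, at 33 to 160 per mouse. The study traces its own Sca1+ cells to bone marrow and possibly also to periosteum left on the bone. None of the genes on a type's own marker list was at 0 in every mouse. Levels are CPM, the UMIs of a gene in a mouse's cells of one type, scaled to a common library total after normalisation by the trimmed mean of M-values (TMM). The targeted gene Sox4 was lower in the mutants in Lepr+ OP-like cells (log2 fold change −1.33 ± 0.14 SE, adjusted p = 8.6e-05), preOB-like cells (−1.43 ± 0.16, adjusted p = 0.00075), OB-like cells (−1.59 ± 0.13, adjusted p = 0.00086) and Lepr+ MSC-like cells (−1.28 ± 0.15, adjusted p = 0.0052), all by edgeR's quasi-likelihood test. It did not pass that test in the other 5 types, where the adjusted p was 0.16 in Sca1+ MSC-like cells, 0.26 in pericyte-like cells and 1.0 in both chondrocyte types and endothelial cells (0.049 and 0.02 in the first 2 when a control and a mutant of one age and replicate number were paired).

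In the GRCm38 build with GENCODE annotation, Postn (ENSMUSG00000027750) lies on the plus strand at chr3:54361109-54391037, and Thbs3 (ENSMUSG00000028047) is on the same chromosome and strand at chr3:89215180-89226837. Tnc (ENSMUSG00000028364) is at chr4:63959785-64047015 and Tnn (ENSMUSG00000026725) at chr1:160085029-160153580, both on the minus strand. Sparc (ENSMUSG00000018593) at chr11:55394500-55423183, Thbs2 (ENSMUSG00000023885) at chr17:14665500-14694235 and Thbs4 (ENSMUSG00000021702) at chr13:92751590-92794818 are also on the minus strand. Thbs1 (ENSMUSG00000040152) at chr2:118111876-118127133, Cthrc1 (ENSMUSG00000054196) at chr15:39076932-39087121 and Spon1 (ENSMUSG00000038156) at chr7:113765998-114043370 are on the plus strand. All are protein-coding, and the compact Cthrc1 has at most 4 exons in a transcript, against 12 to 26 in the others. Tnc, Thbs1 and Thbs3 overlap a gene on the opposite strand (8030451A03Rik, Gm29233 and Mtx1), and the counting's use of strand is not given in the sources used here, so reads in the overlaps are uncertain.

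Promoters are shown for Tnn, which had the lowest adjusted p between ages, Thbs2, which was called between ages in most cell types, and Postn, which had the lowest adjusted p between paired mice of the 2 genotypes. Each runs from 250 bases before to 50 bases after a RefSeq transcription start in GRCm38.p6, and RefSeq windows were held for 7 of the 10 genes. Motifs of 6 letters were searched on both strands, with matches in capitals: TATAAA, the TATA box, and ACAAAG and ACAATG, which are of the kind the DNA-binding domain of SOX proteins recognises.
Tnn (chr1:160153526-160153825, minus strand): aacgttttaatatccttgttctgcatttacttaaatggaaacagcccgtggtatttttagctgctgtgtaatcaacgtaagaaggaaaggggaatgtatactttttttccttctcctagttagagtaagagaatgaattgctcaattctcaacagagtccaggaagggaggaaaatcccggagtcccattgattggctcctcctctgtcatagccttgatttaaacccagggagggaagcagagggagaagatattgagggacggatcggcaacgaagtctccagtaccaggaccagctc
Thbs2 (chr17:14694213-14694512, minus strand): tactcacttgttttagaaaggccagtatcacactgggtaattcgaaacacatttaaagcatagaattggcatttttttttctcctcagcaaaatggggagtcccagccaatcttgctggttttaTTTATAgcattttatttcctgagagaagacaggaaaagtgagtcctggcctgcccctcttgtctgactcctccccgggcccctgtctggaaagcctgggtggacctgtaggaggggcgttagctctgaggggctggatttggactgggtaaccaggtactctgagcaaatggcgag
Postn (chr3:54360857-54361156, plus strand): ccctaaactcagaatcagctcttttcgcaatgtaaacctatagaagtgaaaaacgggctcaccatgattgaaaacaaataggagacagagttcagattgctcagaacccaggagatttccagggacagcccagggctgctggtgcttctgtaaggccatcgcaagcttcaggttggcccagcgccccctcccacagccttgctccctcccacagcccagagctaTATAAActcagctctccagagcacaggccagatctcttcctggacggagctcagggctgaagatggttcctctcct
TATAAA stood in 13.6% of the 32851 promoter windows of the genome, ACAAAG in 18.7% and ACAATG in 12.6%. The Postn window held TATAAA (a window at an earlier Postn start held no match), the Thbs2 window held it on the opposite strand, where it reads TTTATA, and the Tnn window held no match. The 2 windows of Tnc overlap, and both hold the same TATAAA. Among the 9 windows of these genes, that of Thbs3 alone held ACAAAG, and none held ACAATG.

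The genes fell into groups by the cell type in which they stood highest. In control mice, OB-like cells had the highest level of Sparc, Thbs1, Thbs4 and Cthrc1, Sca1+ MSC-like cells that of Postn, Tnn and Thbs2, Lepr+ OP-like cells that of Tnc, Lepr+ MSC-like cells that of Spon1 and GPC-like cells that of Thbs3. For Thbs2 and Thbs3 the range of the highest type lay apart from that of the next, and for the other 8 genes the ranges of the first 2 types overlapped. These orders are descriptions, since the cell types come from the same cells, although the 10 genes were not among the genes used for clustering or naming.

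**Figure D1:**
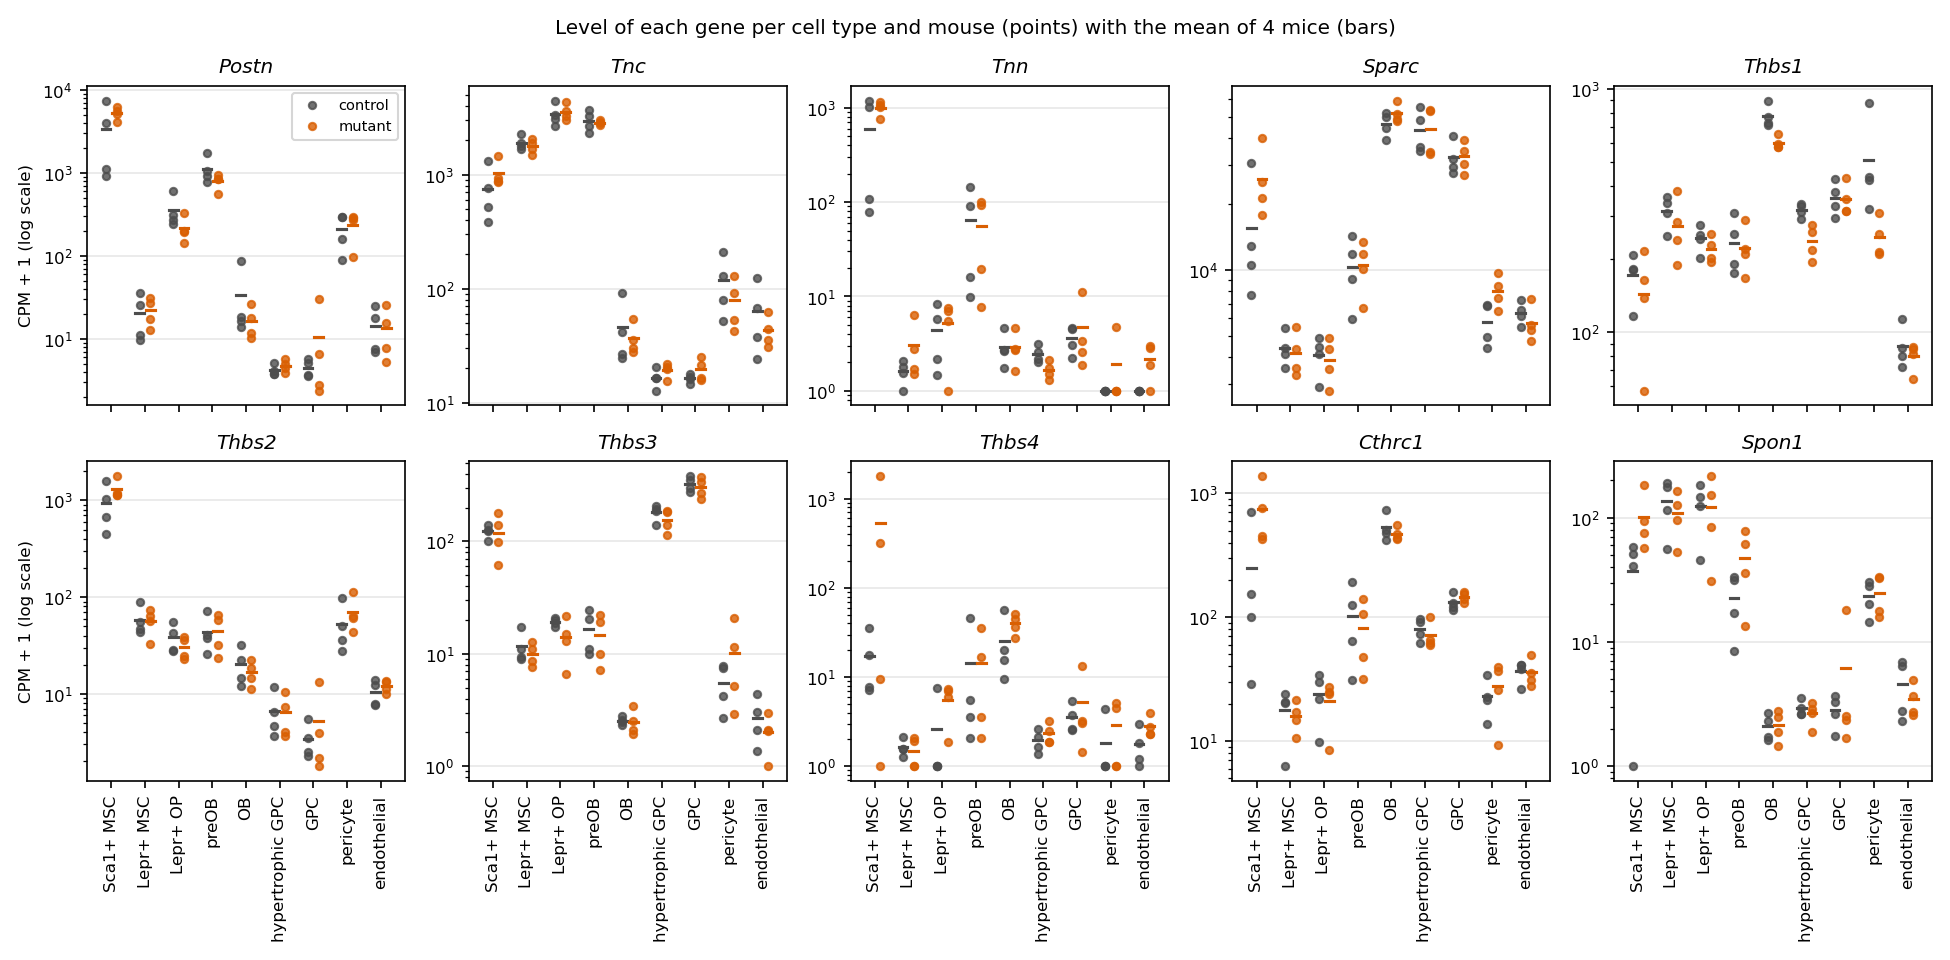
Level of each of the 10 genes (CPM + 1, log axis) in 9 cell types, with each point a mouse (4 controls in grey, 4 mutants in orange) and each bar the mean of 4 mice. Thbs2 in Sca1+ MSC-like cells and Thbs3 in GPC-like cells stand above every other type in the controls, and most grey and orange points overlap.

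Postn was highest in Sca1+ MSC-like cells, with 4039 and 1111 CPM in the control mice of 7 weeks and 916 and 7439 CPM in those of 13 weeks. The controls spread widely in this small population, and the mean was 3376 ± 3062 CPM (SD, n = 4). PreOB-like cells had 928, 774, 1735 and 1059 CPM in the same mice, all above the 243 to 597 CPM of Lepr+ OP-like cells. Pericyte-like cells followed with 88.8 to 296 CPM, and the level then dropped to 12.7 to 85.9 CPM in OB-like cells. Among Lepr+ OP-like, preOB-like and OB-like cells, Postn thus had its maximum in preOB-like cells, with a mean below that of Sca1+ MSC-like cells. It was at 2.52 to 4.71 CPM in both chondrocyte types.

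The tenascins had different places. Tnc stood at 3365 ± 767 CPM (SD, n = 4) in Lepr+ OP-like cells, with 3043, 2675, 4450 and 3293 CPM in the 4 controls, and at 2965 ± 596 CPM in preOB-like cells, 2 types whose ranges overlapped. Lepr+ MSC-like cells were lower and apart from both, at 1667 to 2265 CPM, and Sca1+ MSC-like cells lower again, at 383 to 1301 CPM. In OB-like cells Tnc was down at 23.7 to 90.7 CPM. Tnn had its highest control means in Sca1+ MSC-like and then in preOB-like cells. Its Sca1+ MSC-like level was uneven, at 1008, 108, 77.9 and 1191 CPM in the 4 controls, and its preOB-like level was 90.3 and 143 CPM at 7 weeks and 15.2 and 8.99 CPM at 13 weeks. Every other type averaged 3.43 CPM or less of Tnn in the controls, and pericyte-like and endothelial cells had no UMI of it in any control, where 3 UMIs would be 0.656 to 6.77 CPM.

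Each thrombospondin had its own pattern. Thbs1 was the most widespread of them, at 776 ± 84.3 CPM (SD, n = 4) in OB-like cells, 513 ± 247 CPM in pericyte-like cells and 171 to 357 CPM on average in the other types except endothelial cells, which had 87.1 ± 18.2 CPM. Thbs2 was 935 ± 493 CPM in Sca1+ MSC-like cells and at most 97.6 CPM in any control mouse of another type, so this type lay apart from all others. Thbs3 was a growth plate gene, with 349, 298, 381 and 275 CPM in GPC-like and 193, 186, 207 and 138 CPM in hypertrophic GPC-like cells of the controls. These 2 ranges did not overlap, and together the chondrocyte types held 54.8% and 35.2% of its UMIs. Sca1+ MSC-like cells also had 122 ± 16.5 CPM of Thbs3, while OB-like cells had 1.55 ± 0.193 CPM. Thbs4 was 24.5 ± 21.3 CPM in OB-like, 16.1 ± 13.4 CPM in Sca1+ MSC-like and 13.4 ± 21.5 CPM in preOB-like cells, with an SD near the mean in the first 2 and above it in the last.

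Sparc belonged to the cells that make mineralised matrix and cartilage. It stood at 46389 ± 5741 CPM in OB-like, 43664 ± 9917 CPM in hypertrophic GPC-like and 32600 ± 5853 CPM in GPC-like cells (SD, n = 4 controls), with overlapping ranges. The lowest type, Lepr+ OP-like cells, had 4090 ± 827 CPM. Cthrc1 was 533 ± 136 CPM in OB-like cells, which held 91.2% of its UMIs, and 131 ± 20.4 CPM in GPC-like cells. Spon1 had the opposite place in the lineage, with 134 ± 62.1 CPM in Lepr+ MSC-like and 124 ± 57.9 CPM in Lepr+ OP-like cells, 21.6 ± 11.9 CPM in preOB-like cells and 1.09 ± 0.508 CPM in OB-like cells.

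Droplet libraries hold free RNA that adds UMIs to every cell. Erythroid cells, which should lack these transcripts, had 252 to 1113 CPM of Sparc, 8.45 to 19.8 CPM of Tnc, 6.8 to 20.1 CPM of Thbs1 and 2.27 to 9.02 CPM of Cthrc1 over the 8 mice. Postn reached at most 3.67 CPM there, Thbs4 2.88 CPM, Thbs3 1.96 CPM, Thbs2 1.34 CPM, Tnn 0.668 CPM and Spon1 0.494 CPM. CPM cannot be carried from these cells to others as it stands, since they held a mean of 26068 UMIs a cell (median over mice), against 4461 in pericyte-like and 6548 in Lepr+ OP-like cells and 16497 in OB-like cells, and an equal number of free UMIs per droplet is a larger CPM in a cell with fewer UMIs. Levels were therefore also compared per cell, before TMM. The Sparc UMIs per erythroid cell were 1.18 to 3.14% of those per OB-like cell but 38.9 to 82.4% of those per Lepr+ OP-like cell, and with haematopoietic progenitor-like cells in their place the second share was 22.8 to 41.2%. In Sca1+ MSC-like cells these shares had medians of 16.6% and 7.83%, in preOB-like cells 20.2% and 11.5% and in endothelial cells 39.3% and 22.1%. For several low members the blood cells came near the type itself. The UMIs per erythroid cell, and then those per haematopoietic progenitor-like cell, had medians over mice of 101% and 71.3% for Tnc in hypertrophic GPC-like cells and 101% and 57.5% in GPC-like ones. For Postn these were 84.5% and 58.4% in hypertrophic GPC-like cells and 88.4% and 61.8% in GPC-like ones. For Tnc in OB-like cells the median was 65.1% with erythroid cells, over a range of 20.9 to 143%. For Thbs1 in endothelial cells the medians were 85.4% and 39.3%. They were 91.4% and 45.2% for Thbs3 in OB-like cells, and 360% and 157% for Thbs4 in the 6 mice with a UMI of it in Lepr+ MSC-like cells. The Thbs4 level there is read here as background and not as expression, and the others are not set apart from background by the erythroid cells.

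Within the 24544 OB-like cells, the 6 clusters differed in level for several members. A cluster led by Col1a1 and Col22a1, which had fewer UMIs per cell, held 1286 ± 147 CPM of Thbs1 in the controls (SD, n = 4), against means of 715 to 839 CPM in the other 5. The same cluster had 218 ± 102 CPM of Cthrc1 against means of 409 to 602 CPM, and 28348 ± 5792 CPM of Sparc against 46771 to 51107 CPM. A cluster with Phex, Ptprz1, Pdpn and Dmp1 among its leading genes, which are known from cells turning into osteocytes, had 51.5 ± 32.5 CPM of Thbs2 and 7.85 ± 9.45 CPM of Postn. Postn was 40.9 ± 45.8 and 44.5 ± 33.6 CPM in the 2 clusters with most of it, so that its spread between mice was as large as its differences between clusters.

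Mutant and control mice were compared in each cell type with edgeR's quasi-likelihood test over all genes, and p-values were adjusted over all genes tested in that type. For the members, 80 of the 90 pairs had enough counts, and 10 did not pass the filter on low counts. Averaged over both ages, 0 of the 80 pairs passed an adjusted p of 0.05, 12 had an unadjusted p under 0.05, and DESeq2 called 1. Over all genes and types, edgeR's adjusted p called 0.479% of the tests in this comparison. The shares of all tests given here are of this kind. The unadjusted and DESeq2 counts have no share of all genes beside them, and are not to be set against these. At 7 weeks 0 of 80 passed (5 unadjusted, DESeq2 0), against 0.0579% of all tests, and at 13 weeks 0 of 80 (13 unadjusted, DESeq2 1), against 0.088%. The difference between the ages passed for 0 of 80 pairs (2 unadjusted, and DESeq2 called Tnc in endothelial cells with an adjusted p of 0.019), against 0.0% of all tests. The Tnc level in those cells is not set apart from free RNA, since the UMIs per erythroid cell were 42.2 to 254% of those per endothelial cell.

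In every type other than GPC-like cells, mice deviated from their group means with a positive correlation between the control and mutant of one age and replicate number. It was weak in Sca1+ MSC-like cells (r of 0.108 and 0.134 at the 2 ages) and reached 0.678 in OB-like cells. Replicate 1 was the deeper library in every group, so pairing and library depth cannot be told apart. The pairs were taken from these same data, and more members passed with each such pair as a block. The block called 9 of 80 pairs averaged over both ages, 5 higher and 4 lower in the mutants, against 2.37% of all tests. At 7 weeks it called 1, against 0.579%, and at 13 weeks 6, against 0.87%. These totals include GPC-like cells, although their mice were not taken as paired, and the block called no member there. The block's share of calls in the types with a member called was 8.0% of genes in OB-like, 3.72% in Lepr+ OP-like, 3.41% in Sca1+ MSC-like, 2.89% in preOB-like and 0.576% in pericyte-like cells. In the Lepr+ OP-like cells 2 of the 10 members were called, in OB-like cells 3 of 10, in pericyte-like cells 2 of 7, and in Sca1+ MSC-like and preOB-like cells 1 of 10 each.

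**Figure D2:**
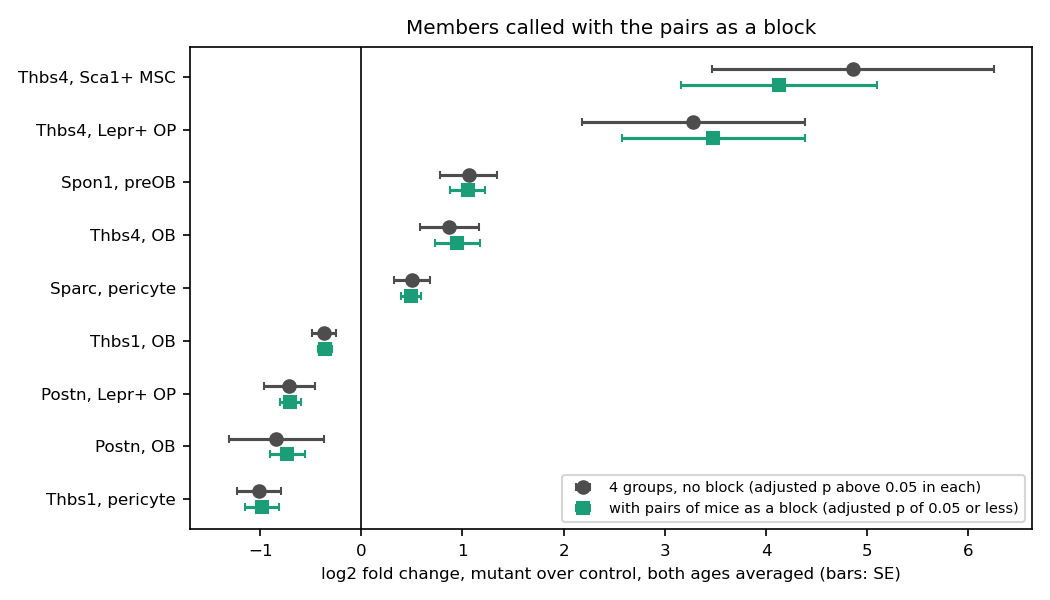
Log2 fold change of mutant over control with its SE (bars) for the 9 gene and cell type pairs called with the block, without the block (circles) and with it (squares). Each estimate has the same sign in both fits, and the bars are shorter with the block, as for Postn in Lepr+ OP-like cells, where the SE was 0.25 without it and 0.10 with it. The 9 pairs were picked because the block called them, so the shorter bars are no evidence for the block.

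In Lepr+ OP-like cells, Postn was 313, 270, 597 and 243 CPM in the controls and 198, 191, 328 and 143 CPM in the mutants, both in the order 7 weeks replicate 1, 7 weeks replicate 2, 13 weeks replicate 1 and 13 weeks replicate 2. The groups overlapped, but the mutant was lower in all 4 pairs, at 0.63, 0.707, 0.55 and 0.588 of its control. This gave a log2 fold change of −0.71 ± 0.25 (SE) with an adjusted p of 0.33, and −0.70 ± 0.10 with an adjusted p of 6.1e-05 with the block, by edgeR's quasi-likelihood test. Both ages gave the same sign with the block, at −0.59 (adjusted p = 0.033) and −0.82 (adjusted p = 0.0016). The value at 13 weeks rests on few mice, and without the block it went from −0.84 (adjusted p = 0.77) to −0.05 (1.0) without control replicate 1 and −0.35 (0.92) without mutant replicate 2 of that age, or −1.35 (0.18) and −1.55 (0.26) without the other control and the other mutant. Averaged over the ages and without the block, leaving out control replicate 1 of 13 weeks reduced the size to −0.32 (adjusted p = 0.86), and leaving out control replicate 2 of 13 weeks took it to −0.97 (adjusted p = 0.046). It was −0.47 (adjusted p = 0.65) without mutant replicate 2 of 13 weeks and −1.07 (adjusted p = 0.059) without mutant replicate 1 of 13 weeks. In preOB-like cells, which have more Postn than Lepr+ OP-like cells, the mutant was lower in 3 of 4 pairs, and the log2 fold change of −0.46 ± 0.22 did not pass (adjusted p = 0.58, or 0.17 with the block). The proliferating preOB list was lower in the mutants of the Lepr+ OP-like cells without overlap, at 112 to 203 CPM in the controls and 69.5 to 81.3 CPM in the mutants, with 12 of its 12 genes at a lower mutant mean and none at 0 in every mouse. A cluster with those markers, kept out of the named types for its few UMIs, had 263 to 515 CPM of Postn in the controls, and its part in the difference was not tested.

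In OB-like cells the size of the Postn difference rests on 1 mouse. Postn was 12.7, 17.2, 85.9 and 15.2 CPM in the controls and 9.23, 16.9, 25.3 and 10.7 CPM in the mutants, in the same order. Control replicate 1 of 13 weeks is far above the other controls, which lie among the mutants. The mutant was lower in all 4 pairs, at 0.729, 0.984, 0.294 and 0.709 of its control, the third of which is the pair of that mouse. With all mice, the log2 fold change was −0.84 ± 0.47 (adjusted p = 0.58), or −0.73 ± 0.17 with the block (adjusted p = 0.036), and 0.03 without that control (adjusted p = 0.99, no block). At 13 weeks the block gave −1.22 (adjusted p = 0.04), and the value without the block was −1.49 (0.7) with all mice and 0.26 (1.0) without that control.

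Spon1 in preOB-like cells went the other way. It was 16.2, 7.41, 30.7 and 32.2 CPM in the controls and 34.9, 12.5, 59.9 and 76.8 CPM in the mutants, from 14 to 128 UMIs a mouse. Each mutant was above its own control, by 2.16, 1.69, 1.95 and 2.39 times, while the groups overlapped across the ages. The log2 fold change was 1.06 ± 0.28 with an adjusted p of 0.12, and 1.05 ± 0.17 with an adjusted p of 0.00035 with the block. Without the block it was 0.58 (adjusted p = 0.65) when mutant replicate 1 of 7 weeks was left out, and it passed at 1.32 (adjusted p = 0.012) without mutant replicate 2 of 7 weeks and at 1.42 (adjusted p = 0.046) without control replicate 1 of 7 weeks. At 13 weeks alone the block gave 1.09 (adjusted p = 0.0039). At a finer clustering the unblocked value was 0.65 (adjusted p = 0.51). The Lepr+ MSC marker list, whose type has the highest Spon1, summed to 597 to 936 CPM in the controls and 600 to 1291 CPM in the mutants of these preOB-like cells. It was higher in the mutant in 3 of 4 pairs, with 10 of its 15 genes at a higher mutant mean and none at 0 in every mouse. The same list also set Lepr+ OP apart from preOB in the naming, and its part in the difference was not tested. In the Lepr+ MSC-like cells themselves, which held 43.2% of all Spon1 UMIs, Spon1 was 115, 54.4, 190 and 175 CPM in the controls and 93.9, 52.1, 126 and 162 CPM in the mutants. Here the mutant was lower in all 4 pairs, at 0.82, 0.958, 0.661 and 0.929 of its control, and the log2 fold change of −0.28 ± 0.23 did not pass (adjusted p = 0.9, or 0.4 with the block).

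Averaged over both ages, Thbs1 had a negative log2 fold change in 9 of 9 types, from −1.01 in pericyte-like to −0.02 in GPC-like cells. TMM, RLE and DESeq2 scaling of the same counts gave the same signs. At 13 weeks alone it was negative in 8 and positive, at 0.02, in 1. The types share libraries, and OB-like cells held 81.1% of all Thbs1 UMIs, so these signs are not separate observations. The Thbs1 UMIs per erythroid cell had medians of 85.4% of those per endothelial cell, 42.8% per Sca1+ MSC-like cell and 25.3% per pericyte-like cell. The part of free RNA was not tested. In pericyte-like cells Thbs1 was 434, 321, 875 and 422 CPM in the controls and 254, 310, 209 and 213 CPM in the mutants, so every mutant lay below every control. The log2 fold change was −1.01 ± 0.22 with an adjusted p of 0.11, −0.98 ± 0.17 with an adjusted p of 0.0058 with the block, and DESeq2's adjusted p was 0.022. Control replicate 1 of 13 weeks carries much of the size, and without it the value was −0.70 (adjusted p = 0.45). At 13 weeks the block gave −1.58 (adjusted p = 0.0024), and without the block −1.62 (0.1) became −1.01 (0.72) without that control. With a limit of 5% in place of 10% mitochondrial UMIs per cell the averaged value was −0.13 (adjusted p = 1.0), whereas it passed without control replicate 2 of 7 weeks (−1.11, adjusted p = 0.02) and without control replicate 2 of 13 weeks (−1.23, adjusted p = 0.0005). The 2 clusters of this type differed in Thbs1, and their shares differed between mice. The Acta2-led cluster made up 28.7, 32.9, 70.5 and 49.7% of the pericyte-like cells of the controls and 37.0, 29.3, 48.7 and 35.3% of those of the mutants, highest in the control with most Thbs1. Within it, from 17 to 96 cells a mouse, Thbs1 was 919, 666, 1054 and 658 CPM in the controls and 526, 557, 300 and 315 CPM in the mutants, with no overlap. Within the Rgs5-led cluster it was 195, 173, 226 and 141 CPM against 136, 206, 111 and 112 CPM, which overlap. The clusters were set apart after the values of the whole type were seen, and these levels carry no test.

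In OB-like cells, Thbs1 was 729, 767, 898 and 711 CPM in the controls and 656, 579, 595 and 579 CPM in the mutants, again with no overlap. The log2 fold change was −0.37 ± 0.12 (adjusted p = 0.22), or −0.36 ± 0.07 with the block (adjusted p = 0.016), and the mutant was lower in all 4 pairs. The mutant mean was the lower one in each of the 6 OB-like clusters, for example 596 ± 27.3 against 839 ± 93.1 CPM and 408 ± 73.6 against 740 ± 192 CPM in the cluster with Phex and Dmp1. Hypertrophic GPC-like cells also had no overlap, with 291 to 337 CPM in the controls and 193 to 275 CPM in the mutants, but the adjusted p was 1.0 (0.46 with the block). In OB-like cells the granulocyte or monocyte list was also lower in the mutants without overlap, at 29.8 to 67.7 CPM in the controls and 14.2 to 26.2 CPM in the mutants, with 9 of its 11 genes lower, while granulocyte- or monocyte-like cells themselves had 17.4 to 136 CPM of Thbs1. The OB list was higher in the mutant in all 4 pairs, at 92810 to 128800 CPM in the controls and 118100 to 206500 CPM in the mutants, although only 4 of its 15 genes had the higher mean there. None of the genes of either list was at 0 in every mouse, and their part in the Thbs1 difference was not tested.

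Sparc in pericyte-like cells was 6909, 6811, 4392 and 4951 CPM in the controls and 7417, 8456, 6494 and 9663 CPM in the mutants. The groups overlapped, and the mutant was higher in all 4 pairs, by 1.07, 1.24, 1.48 and 1.95 times. Its log2 fold change was 0.50 ± 0.18 (adjusted p = 0.62), or 0.49 ± 0.10 with the block (adjusted p = 0.026), and at 13 weeks the block gave 0.76 (adjusted p = 0.015). Without the block the value at 13 weeks was 0.79 (0.57), or 0.47 (1.0) without mutant replicate 2 and 1.03 (0.56) without mutant replicate 1 of that age. The OB marker list moved the same way in these cells in all 4 pairs, with 1680 to 2660 CPM in the controls and 2539 to 3555 CPM in the mutants. The mean was higher in the mutants for 10 of its 15 genes, and its part in the Sparc difference was not tested. Mutant replicate 2 of 13 weeks, the highest in Sparc, also had the most of the GPC list (856 CPM against 261 to 468 CPM) and the hypertrophic GPC list (676 CPM against 164 to 309 CPM), whose types are rich in Sparc. The share of free RNA in this level was not measured directly. The Sparc UMIs per erythroid cell were 26.8 to 86.7% of those per pericyte-like cell, and those per haematopoietic progenitor-like cell were 12.2 to 56.0%, and their part in the difference was not tested either. By cluster, Sparc was 7331 to 8447 CPM in the controls and 8077 to 9664 CPM in the mutants of the Rgs5-led cells, and 2124 to 3949 CPM against 3067 to 10479 CPM in the Acta2-led cells. In OB-like cells, which held 81.8% of all Sparc UMIs, the log2 fold change of 0.16 ± 0.16 did not pass (adjusted p = 0.83, or 0.3 with the block).

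Thbs4 was the gene with the largest and least even differences. In OB-like cells it was 14.4, 8.54, 55.7 and 19.3 CPM in the controls and 26.1, 35.5, 50.2 and 43.9 CPM in the mutants, higher in the mutant in 3 of 4 pairs. Here the log2 fold change was 0.87 ± 0.29 (adjusted p = 0.25), 0.95 ± 0.22 with the block (adjusted p = 0.037), and 1.35 without control replicate 1 of 13 weeks (adjusted p = 0.019, no block). The 4 genes of the tenocyte list (Scx, Tnmd, Mkx and Kera) summed to 12.3 to 15.2 CPM in these cells of the controls and 19.0 to 22.9 CPM in the mutants, with 4 of 4 means higher in the mutants, and their part in the Thbs4 difference was not tested. In Lepr+ OP-like cells Thbs4 rests on 0 to 11 UMIs a mouse. It had no UMI in 3 controls, in which 3 UMIs would be 0.891 to 1.56 CPM, and 6.55 CPM in control replicate 1 of 13 weeks, against 4.99, 0.867, 6.05 and 6.26 CPM in the mutants. The fitted log2 fold change of 3.28 ± 1.10 (adjusted p = 0.28), or 3.48 ± 0.90 with the block (adjusted p = 0.026), depends on how zeros are handled. The UMIs per erythroid cell would be 0 to 9.27 CPM in these cells over the mice. Within the 5 mice with a UMI of Thbs4 here, they were 0 to 142% of those per Lepr+ OP-like cell (median 43.4%). Erythroid cells had no Thbs4 in mutant replicate 2 of either age, where Lepr+ OP-like cells had 0.867 and 6.26 CPM. Without that control the log2 fold change was 6.14 (adjusted p = 0.032).

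In Sca1+ MSC-like cells Thbs4 was 34.8, 16.6, 6.23 and 6.65 CPM in the controls and 0, 320, 1798 and 8.61 CPM in the mutants. Mutant replicate 1 of 13 weeks and mutant replicate 2 of 7 weeks stand far above all other mice, and the other 2 mutants lie within or below the controls. The log2 fold change was 4.86 ± 1.39 (adjusted p = 0.15) and 4.13 ± 0.97 with the block (adjusted p = 0.031), and at 13 weeks the block gave 6.71 (adjusted p = 0.029). The value at 13 weeks without the block was 7.10 (0.2), and it was 0.39 (0.99) without mutant replicate 1 of that age. The averaged value without the block was 1.52 (adjusted p = 0.85) without the first of these mice, 0.33 (adjusted p = 1.0) without the second, and passed at 5.38 (adjusted p = 0.0085) without mutant replicate 2 of 13 weeks. The same 2 mice had the highest tenocyte list sums of this type, 606 and 294 CPM against 37.4 to 86.1 CPM in the other 6, and 3 of its 4 genes had the higher mean in the mutants. Tnmd, a membrane protein of tendon cells, was 232 and 151 CPM in them and at most 16.6 CPM elsewhere. They also had the most cells, 160 and 154 against 33 to 59. The part of these cells in the Thbs4 values was not tested.

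Sparc in Sca1+ MSC-like cells was 12867, 10504, 7711 and 30832 CPM in the controls and 17755, 21373, 25137 and 39791 CPM in the mutants. It was higher in the mutant in 4 of 4 numbered pairs, while the genotypes overlapped. The log2 fold change of 0.75 ± 0.38 did not pass (adjusted p = 0.5, or 0.073 with the block), and both 13-week controls weighed on it, at 0.41 without replicate 1 and 1.41 (adjusted p = 0.0039) without replicate 2. The median log2 fold change of the 10 members in this type was 0.70, against 0.006 over all genes tested there, and none of the 10 was called without the block. Other members also varied within the genotypes. Cthrc1 was 154, 99.5, 28.1 and 709 CPM in the controls and 448, 752, 1378 and 426 CPM in the mutants, with a log2 fold change of 1.77 ± 0.69 that did not pass (adjusted p = 0.33, or 0.19 with the block). Spon1 was 39.7, 49.7, 0 and 56.6 CPM in the controls, where 3 UMIs in the mouse at 0 would be 9.35 CPM, and 92.9, 74.7, 180 and 56.0 CPM in the mutants (log2 fold change 1.55 ± 0.60, adjusted p = 0.33). Postn and Tnn were both low in control replicate 2 of 7 weeks and control replicate 1 of 13 weeks, where Tnn had 108 and 77.9 CPM, and Tnn was between 766 and 1191 CPM in the other 6. The Sca1+ MSC list itself was lower in the mutants without overlap, at 8734 to 16710 CPM in the controls and 4986 to 7618 CPM in the mutants, with 10 of its 13 genes lower. The OB list was 3148 to 5307 CPM in the controls and 4663 to 12230 CPM in the mutants, with 11 of 15 genes higher, and the 6 genes of the Schwann cell list reached 184 and 393 CPM in control replicate 1 of 7 weeks and control replicate 1 of 13 weeks against at most 8.29 CPM in the others. The part of these mixtures in the values of this type was not tested.

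**Figure D3:**
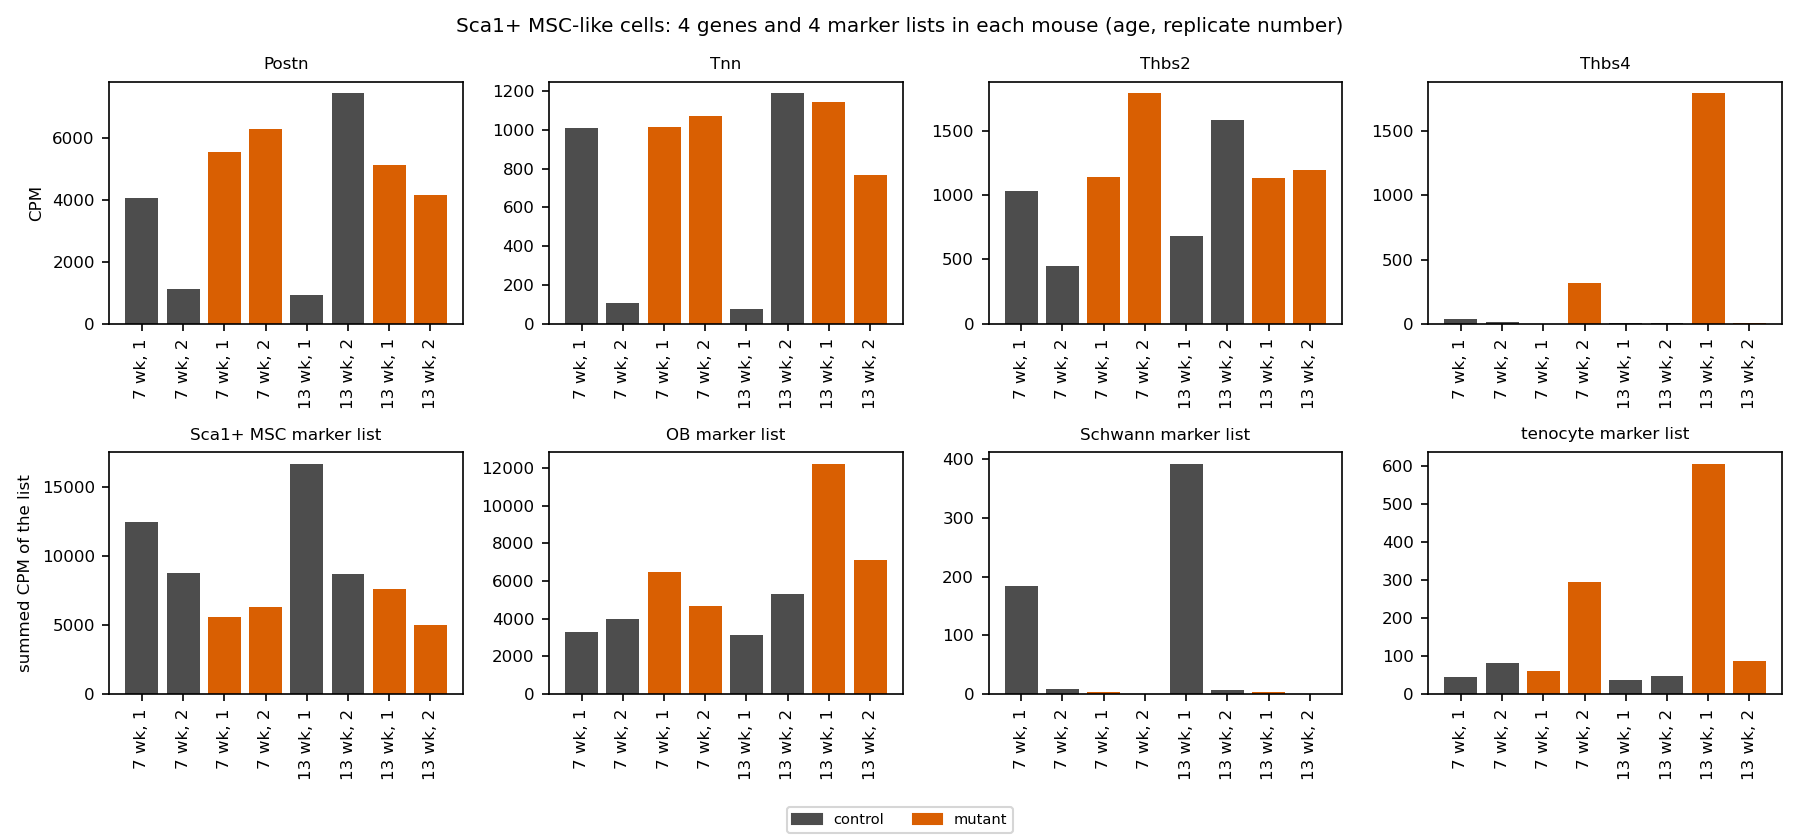
CPM of Postn, Tnn, Thbs2 and Thbs4 (upper row) and summed CPM of 4 marker lists (lower row) in the Sca1+ MSC-like cells of each mouse, with controls in grey and mutants in orange. The 2 tall Thbs4 bars, 320 and 1798 CPM, belong to the mice with the tenocyte list at 294 and 606 CPM.

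**Figure D4:**
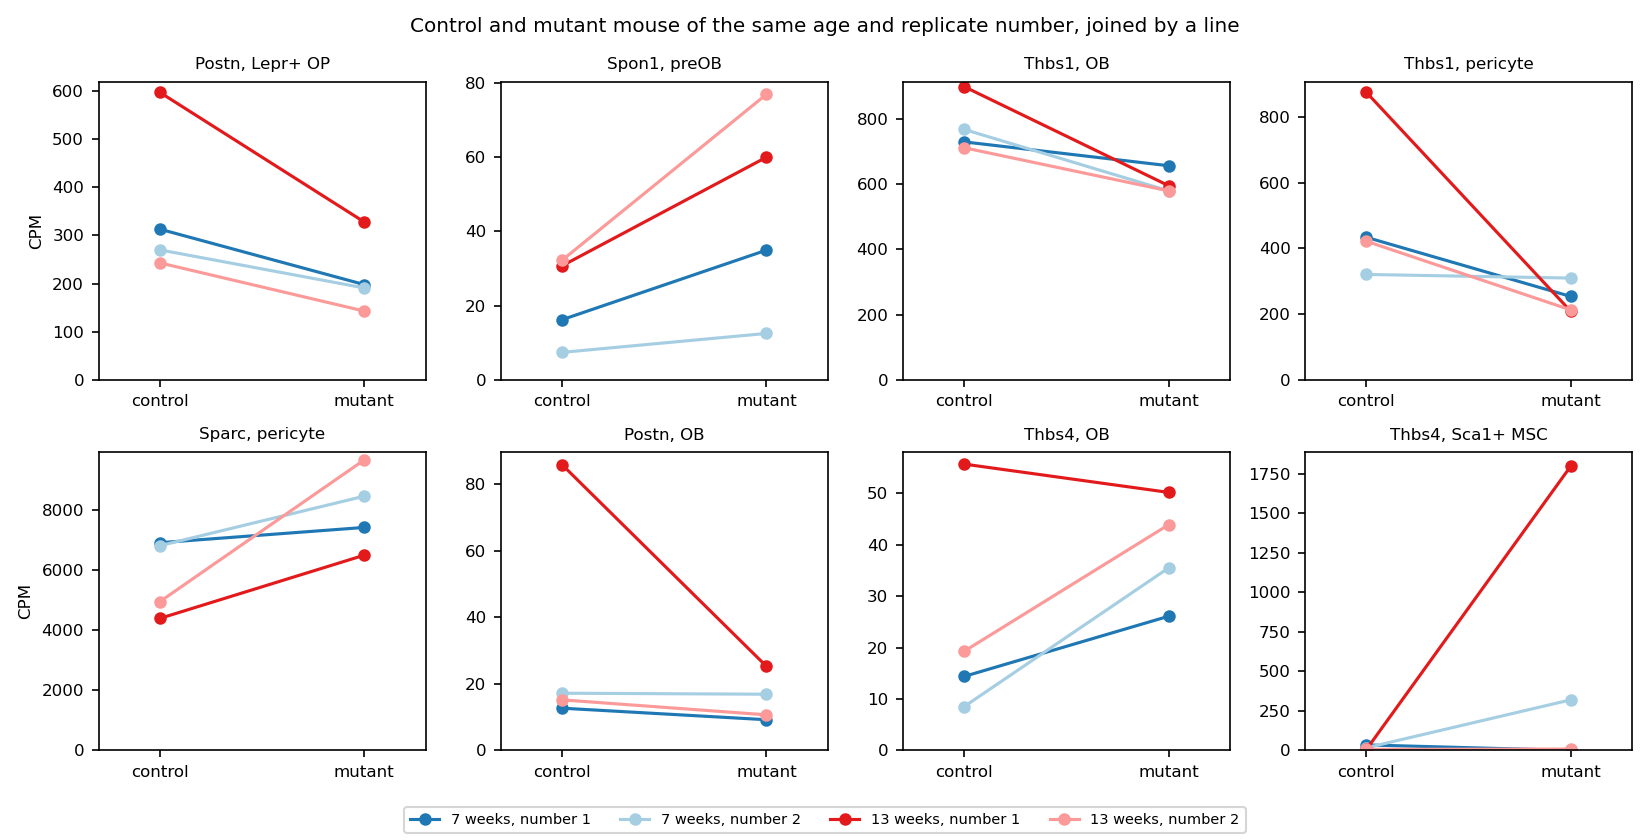
CPM of 8 gene and cell type pairs in the control and the mutant of one age and replicate number, joined by lines. Lines for Postn in Lepr+ OP-like cells fall and lines for Spon1 in preOB-like cells rise in all 4 pairs, whereas for Postn in OB-like cells all 4 fall but 1 pair, from 85.9 to 25.3 CPM, makes up most of the drop.

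For mutant against control, edgeR called Tnc, Tnn, Cthrc1, Thbs2 and Thbs3 in no type with or without the block. DESeq2 did not call them either, other than Tnc in endothelial cells for the difference between the ages. Tnc, for example, had log2 fold changes of −0.62 to 0.48 across the 9 types. In Lepr+ OP-like cells, where it was highest, it was 3043, 2675, 4450 and 3293 CPM in the controls and 3569, 3019, 4346 and 3248 CPM in the mutants, which overlap throughout. Averaged over both ages, Thbs3 had a negative log2 fold change in 7 of 7 types tested, under each of the 3 scalings, but without a call and between −0.56 and −0.05 with TMM. At 13 weeks alone it was negative in 5 and positive in 2 of them, from −1.02 to 0.36. The types share libraries, so these signs are not separate observations.

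The ages were compared in the same model. Between 7 and 13 weeks, averaged over both genotypes, 12 of the 80 pairs passed edgeR's quasi-likelihood test, 5 higher and 7 lower at 13 weeks, against 2.48% of all tests. At an unadjusted p under 0.05 there were 30, and DESeq2 called 11, counts that again have no share of all genes beside them. The members were chosen with earlier results of these data known, so their share is a description. By type, 5 of 10 members passed in preOB-like cells (2.38% of genes), 2 of 10 in Lepr+ OP-like (1.15%), 2 of 10 in OB-like (1.77%), 2 of 8 in hypertrophic GPC-like (7.91%) and 1 of 7 in pericyte-like cells (2.2%). The members among them were Thbs2 and Tnn, which were lower, Spon1 and Thbs4, which were higher, Thbs3, lower in preOB-like cells, and Sparc, higher in hypertrophic GPC-like cells. The count was 6 without control replicate 2 of 7 weeks, 5 without mutant replicate 2 of 7 weeks, 7 without mutant replicate 2 of 13 weeks and 7 at the 5% mitochondrial limit. The ages are different mice, and no pairing of them could be made, so this count has no counterpart to the 9 calls that the pairs gave between the genotypes.

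**Figure D5:**
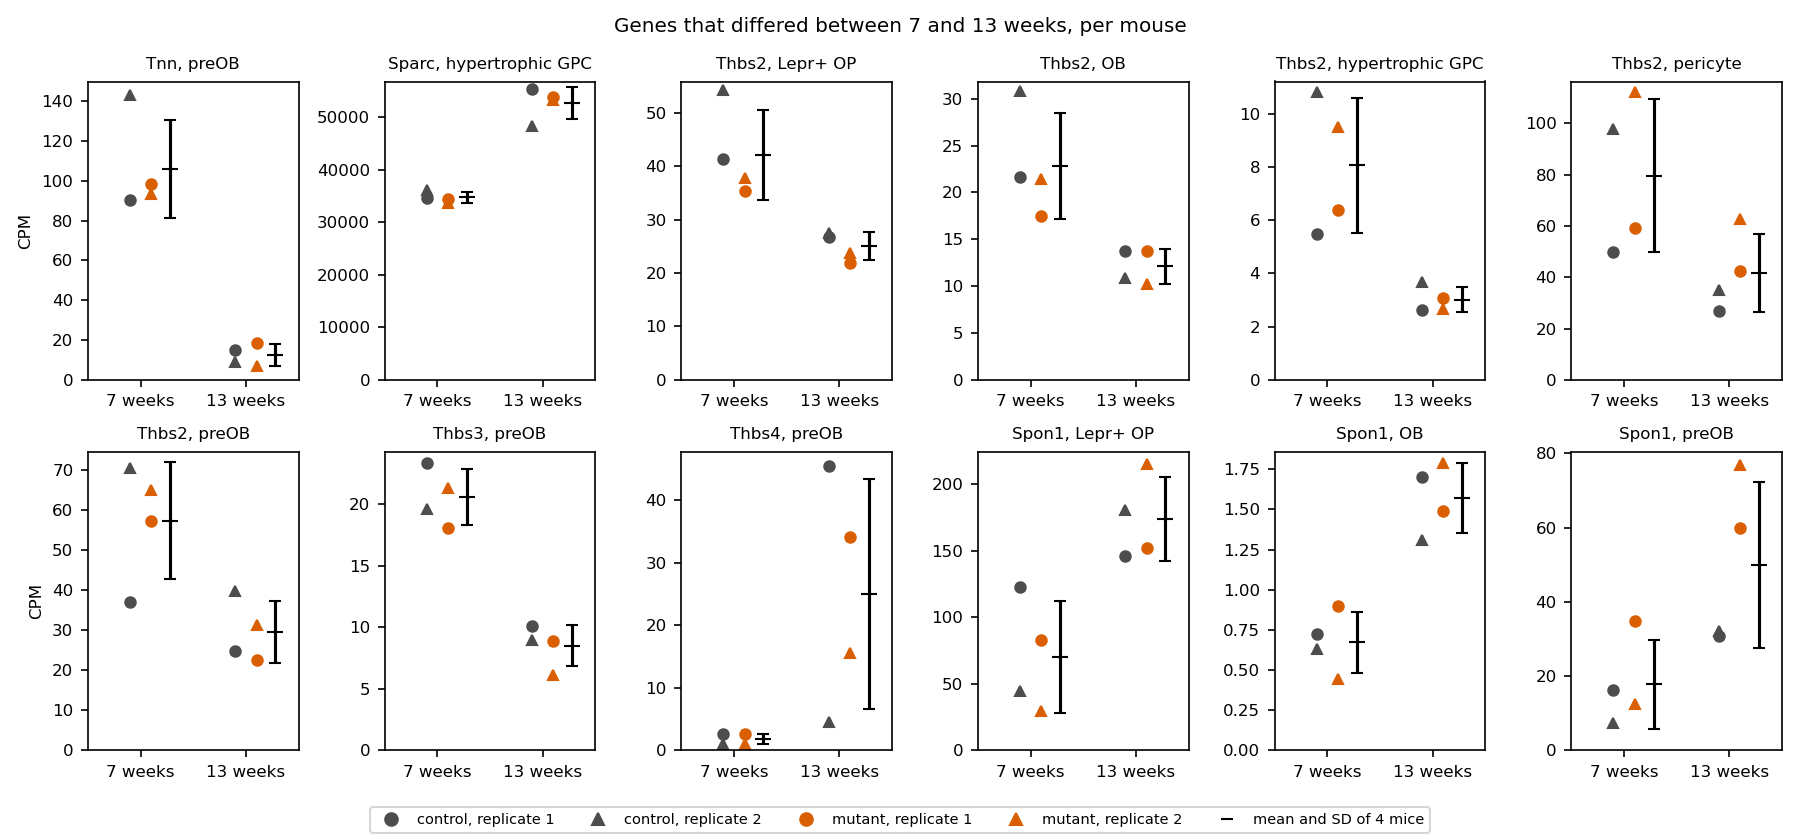
CPM per mouse at 7 and 13 weeks for the 12 gene and cell type pairs that passed (circles replicate 1, triangles replicate 2, grey controls, orange mutants), with the mean and SD of 4 mice as black bars. Tnn in preOB-like cells lies between 90.3 and 143 CPM at 7 weeks and between 6.8 and 18.7 CPM at 13 weeks in both genotypes.

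Tnn in preOB-like cells had the lowest adjusted p. It was 90.3 and 143 CPM in the controls and 98.3 and 93.2 CPM in the mutants of 7 weeks, and 15.2, 8.99, 18.7 and 6.8 CPM in the same order at 13 weeks. All 4 older mice lay below all 4 younger ones, and the level was 8.05-fold lower (log2 fold change −3.01 ± 0.26 SE, adjusted p = 1.2e-05). It passed with any 1 mouse left out, with log2 fold changes from −3.50 to −2.78. In Sca1+ MSC-like cells, where Tnn was highest, no such difference was seen, with 1008, 108, 1018 and 1073 CPM at 7 weeks and 77.9, 1191, 1144 and 766 CPM at 13 weeks. The Sca1+ MSC list in preOB-like cells was 267 to 400 CPM at 7 weeks and 199 to 339 CPM at 13 weeks, with 8 of 13 genes lower at 13 weeks, and the endothelial list was 31.5 to 74.7 against 16.9 to 28.8 CPM, with 12 of 12 lower. The preOB list itself was 9935 to 11550 CPM at 7 weeks and 8055 to 10630 CPM at 13 weeks, with 11 of its 16 genes lower. Among these, 3 genes were several times lower without overlap, Vcan at 344 to 814 against 23.1 to 145 CPM, Slc20a2 at 179 to 283 against 53.8 to 129 CPM and Mpp6 at 266 to 449 against 64.6 to 164 CPM. The cells given the name preOB thus differed between the ages in the genes that name them. The part of these lists in the values of Tnn, Thbs2, Thbs3, Thbs4 and Spon1 in preOB-like cells was not tested.

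Thbs2, which codes for a thrombospondin known to limit vessel growth, was lower at 13 weeks in 5 types. Its log2 fold change was negative in 8 of 9 types, which share libraries, under each of the 3 scalings. In hypertrophic GPC-like cells it was 5.5 to 10.8 CPM at 7 weeks and 2.64 to 3.68 CPM at 13 weeks (log2 fold change −1.36 ± 0.28, adjusted p = 0.0093), from 16 to 37 UMIs a mouse, and the UMIs per erythroid cell were 9.81 to 69.7% of those per cell of this type. This call held with any 1 mouse left out, but not at a finer clustering (−1.04, adjusted p = 0.072). The pericyte list in these cells was 173 to 246 CPM at 7 weeks and 70.6 to 127 CPM at 13 weeks, with 6 of 12 genes lower, and its part was not tested. In OB-like cells it was 17.5 to 30.8 against 10.2 to 13.7 CPM, with no overlap (−0.89 ± 0.15, adjusted p = 0.021). In preOB-like cells the range was 37.0 to 70.4 against 22.5 to 39.7 CPM (−0.98 ± 0.23, adjusted p = 0.03), in Lepr+ OP-like cells 35.4 to 54.2 against 21.9 to 27.4 CPM (−0.74 ± 0.17, adjusted p = 0.041) and in pericyte-like cells 49.7 to 112 against 26.8 to 62.6 CPM (−1.05 ± 0.28, adjusted p = 0.047). In the pericyte-like cells the Acta2-led cluster made up 28.7 to 37.0% at 7 weeks and 35.3 to 70.5% at 13 weeks, and Acta2 was 3669 to 4910 against 7729 to 11280 CPM. Thbs2 was 63.4 to 131 against 42 to 84.2 CPM in the Rgs5-led and 0 to 53.0 against 17.6 to 27.0 CPM in the Acta2-led cells, overlapping in both, and the part of the shares in the Thbs2 difference was not tested. These 4 calls are less firm. Over the mice left out in turn, the adjusted p ran from 0.017 to 0.071 in OB-like, 0.034 to 0.15 in Lepr+ OP-like, 0.0037 to 0.14 in preOB-like and 0.0042 to 0.38 in pericyte-like cells, and the call was lost without control replicate 2 of 7 weeks and without mutant replicate 2 of 7 weeks in each. It was also lost without either replicate 2 mouse of 13 weeks in OB-like cells, without either replicate 1 mouse of 13 weeks in preOB-like and pericyte-like cells, and among Lepr+ OP-like cells without any mouse other than control replicate 1 of 7 weeks. DESeq2's adjusted p was 0.11 in Lepr+ OP-like and 0.16 in pericyte-like cells, and with the 5% mitochondrial limit the log2 fold change was −0.47 in preOB-like cells (adjusted p = 0.78), −0.64 in Lepr+ OP-like (0.56) and −0.75 in pericyte-like cells (0.82). Where Thbs2 was highest, in Sca1+ MSC-like cells, it was 448 to 1792 CPM at 7 weeks and 679 to 1580 CPM at 13 weeks.

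Spon1 was higher at 13 weeks along the lineage. In preOB-like cells it was 16.2, 7.41, 34.9 and 12.5 CPM at 7 weeks and 30.7, 32.2, 59.9 and 76.8 CPM at 13 weeks (log2 fold change 1.43 ± 0.28, adjusted p = 0.01), with ranges that overlap because of 1 mutant mouse. This call held with any 1 mouse left out. In Lepr+ OP-like cells it was 123, 44.8, 82.8 and 29.9 CPM at 7 weeks and 146, 181, 152 and 215 CPM at 13 weeks, apart from each other (1.33 ± 0.28, adjusted p = 0.031). The call was lost without control replicate 2 of 7 weeks (adjusted p = 0.078), mutant replicate 2 of 7 weeks (0.065) or mutant replicate 2 of 13 weeks (0.1), and DESeq2's adjusted p was 0.29. The Lepr+ MSC list, whose type has the highest Spon1, was also higher in these cells at 13 weeks, at 7735 ± 984 CPM against 5657 ± 891 CPM (SD, n = 4 each), with 13 of its 15 genes higher and none at 0 in every mouse. This list also set Lepr+ OP apart from preOB in the naming, and its part was not tested. In OB-like cells the test also passed (1.19 ± 0.24, adjusted p = 0.04), but at 0.445 to 0.901 against 1.31 to 1.79 CPM, where the UMIs per erythroid cell would be 0 to 1.15 CPM over the mice. Within a mouse, the Spon1 UMIs per erythroid cell were 0 to 82.4% of those per OB-like cell (median 25.6%). Of the 8 fits that leave out a mouse the test passed only in that without mutant replicate 1 of 7 weeks, and the 5% mitochondrial limit gave 0.94 (adjusted p = 0.15). In Lepr+ MSC-like cells, the type with the highest level, Spon1 was 52.1 to 115 CPM at 7 weeks and 126 to 190 CPM at 13 weeks, apart from each other, which did not pass (1.03 ± 0.23, adjusted p = 0.11, although DESeq2's was 0.0052).

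Thbs4 in preOB-like cells was 2.55, 1.06, 2.59 and 1.09 CPM at 7 weeks and 45.5, 4.49, 34.2 and 15.6 CPM at 13 weeks (log2 fold change 3.76 ± 0.59, adjusted p = 0.0025). The ages did not overlap, and the call held with any 1 mouse left out, at 2.44 (adjusted p = 0.039) without control replicate 1 of 13 weeks. The younger mice rested on 2 or 6 UMIs and the older on 6 to 117. The UMIs per erythroid cell would be 0 to 8.49 CPM in preOB-like cells over the mice. Within a mouse they were below those per preOB-like cell in every case (median 16.2%). The UMIs per haematopoietic progenitor-like cell were 0 to 171% of those per preOB-like cell. The younger level, at 2 or 6 UMIs a mouse, is therefore not told apart from background. The older mouse at 4.49 CPM had no Thbs4 UMI in its haematopoietic progenitor-like cells, but rests on 6 UMIs. The fitted fold is no exact measure of the change. The OB list, whose type has the highest level of Thbs4 in the controls, was 10940, 6801, 26540 and 9246 CPM in these cells at 13 weeks, highest in the 2 mice with most Thbs4, and 5536 to 14170 CPM at 7 weeks, with 10 of 15 genes higher at 13 weeks. Its part was not tested. Thbs3 in preOB-like cells was 18.1 to 23.4 CPM at 7 weeks and 6.12 to 10.1 CPM at 13 weeks (−1.25 ± 0.23, adjusted p = 0.0066), with no overlap and with the call kept when any 1 mouse was left out. The GPC list, whose type has the highest Thbs3, was also lower in these cells, at 335 to 428 CPM against 148 to 265 CPM, although 5 of its 13 genes were lower, and its part was not tested. The Thbs3 UMIs per erythroid cell would be 1.58 to 6.76 CPM in preOB-like cells over the mice. Within a mouse they were 10.4 to 56.7% of those per preOB-like cell (median 24.7%). With the 5% mitochondrial limit both differences kept their direction and missed the threshold, at 2.59 (adjusted p = 0.068) for Thbs4 and −1.16 (adjusted p = 0.23) for Thbs3.

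Sparc in hypertrophic GPC-like cells was 33742 to 36230 CPM in the 4 mice of 7 weeks and 48340 to 55389 CPM in the 4 of 13 weeks, far apart for the spread within an age (log2 fold change 0.60 ± 0.17, adjusted p = 0.044). The call was nevertheless lost when any 1 mouse was left out (adjusted p from 0.053 to 0.15), and a finer clustering gave 0.27 (adjusted p = 0.48). The hypertrophic GPC list itself was lower at 13 weeks, with 31190 to 40060 CPM at 7 weeks and 19750 to 25510 CPM at 13 weeks. Most of that sum is Col10a1, the collagen gene of hypertrophic cartilage, at 23340 to 30740 CPM against 7828 to 16460 CPM, and of the 12 genes 7 had a lower and 5 a higher mean at 13 weeks. Among the latter Cytl1 was 509 to 1551 CPM at 7 weeks and 2130 to 5349 CPM at 13 weeks. The part of these genes in the Sparc difference was not tested.

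Of a list of 38 relatives, receptors and partners of these proteins, 9 of 260 tests (3.46%) passed edgeR's test averaged over both ages, against 0.479% of all tests. The list was chosen with earlier results of these data known, and genes such as Spon2 count in several types of the same mice. These shares are therefore a description. The Lepr+ OP-like cells had 3 of 29 (0.847% of all genes there), the preOB-like cells 3 of 27 (0.769%), the OB-like cells 2 of 35 (1.34%) and the Sca1+ MSC-like cells 1 of 23 (1.12%). The median log2 fold change of the list was between −0.11 and 0.17 in the 9 types. Spon2, a relative of Spon1, was lower in the mutants in 3 of them. It was 20.8 to 40.1 CPM in the controls and 2.27 to 10.4 CPM in the mutants of Lepr+ OP-like cells, with no overlap (log2 fold change −2.57 ± 0.26, adjusted p = 8.6e-05), and passed at −2.17 ± 0.37 in preOB-like (adjusted p = 0.011) and −1.28 ± 0.16 in OB-like cells (adjusted p = 0.0052). Comp, the fifth member of the thrombospondin family, was higher in the mutants, with 257 ± 165 CPM in the controls and 750 ± 552 CPM in the mutants of preOB-like cells (SD, n = 4 each, 1.41 ± 0.21, adjusted p = 0.0037) and 294 ± 126 against 616 ± 315 CPM in Lepr+ OP-like cells (1.02 ± 0.17, adjusted p = 0.0062). The SPARC relative Smoc2 was higher in Lepr+ OP-like cells (1.12 ± 0.24, adjusted p = 0.034). Among receptors, Ptprz1 was higher in preOB-like cells (1.04 ± 0.20, adjusted p = 0.023) and Vldlr, which is also on the preOB marker list, in OB-like cells (0.49 ± 0.09, adjusted p = 0.037), and the Wnt ligand gene Wnt5a was lower in Sca1+ MSC-like cells (−1.43 ± 0.30, adjusted p = 0.049).

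Across age, 22 of the 260 tests (8.46%) passed, against 2.48% of all tests. As between the genotypes, these shares of the list are a description. The Lepr+ OP-like cells had 3 of 29 (1.15% of all genes), the preOB-like cells 3 of 27 (2.38%), the OB-like cells 3 of 35 (1.77%), the pericyte-like cells 5 of 24 (2.2%) and the endothelial cells 4 of 29 (3.02%). The share was nearer to that of all genes in the chondrocytes, with 3 of 30 in hypertrophic GPC-like (7.91%) and 1 of 30 in GPC-like cells (2.16%). In preOB-like cells Ptprz1, a receptor phosphatase that binds tenascins, was higher at 13 weeks (2.07 ± 0.20, adjusted p = 7.2e-05), as was Comp (1.92 ± 0.21, adjusted p = 0.00015), and Tgfbi, the closest relative of Postn, was lower (−2.02 ± 0.30, adjusted p = 0.0015). Tgfbi was also lower in hypertrophic GPC-like cells (−1.04 ± 0.22, adjusted p = 0.012). Spon2 was lower at 13 weeks in GPC-like (−1.65 ± 0.16, adjusted p = 0.0011), hypertrophic GPC-like (−1.35 ± 0.19, adjusted p = 0.00092) and Lepr+ OP-like cells (−1.25 ± 0.28, adjusted p = 0.038), opposite in sign to Spon1 in the last. In pericyte-like cells the SPARC relative Sparcl1 was higher (1.04 ± 0.19, adjusted p = 0.0036) and Fstl1 lower (−0.73 ± 0.17, adjusted p = 0.025). Sparcl1 is a leading gene of the Acta2-led cluster, which made up 28.7 to 37.0% of these cells at 7 weeks and 35.3 to 70.5% at 13 weeks. The part of these shares was not tested. Itga4, Wnt5a and Comp also passed in pericyte-like cells, Comp and Ptprz1 in Lepr+ OP-like, and Ptprz1, Ror2 and Smoc2 in OB-like cells. Itgav passed in hypertrophic GPC-like cells, and Itgav, Stab1, Sparcl1 and Fn1 in endothelial cells.

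The genes most like each member across the 9 types were named by Pearson's r of log2 mean control CPM with 5 added, over 8711 genes, as a description with 9 points that share libraries. Tnc was most like Esr1 (r = 0.98), Hvcn1 and Kcnk2, the last of which is on the preOB list used for naming. Spon1 was most like Aldh1a2 (r = 0.99), which is on the Lepr+ MSC list, Otulinl and Ptger4. Postn went with B4galnt1 (r = 0.95), Col3a1 and Lrrc17, Tnn with Wnt16 (r = 0.98), Galr2 and Ostn, and Thbs2 with Dkk3 (r = 0.96), Foxp2 and Sgcb. Thbs3 was most like Shisa2 (r = 0.98), Ephb2 and Tmem218, and Sparc most like the cartilage collagen gene Col11a1 (r = 0.97), Zfp469 and Fxyd6. Thbs4 went with Ydjc (r = 0.97), Cacna2d3 and Col1a1, Cthrc1 with Cog6 (r = 0.96), Cdr2 and Fkbp11, and Thbs1, the most even of the 10 genes, with Dtna (r = 0.89), Oaz1 and Ndufb1-ps.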

How the data were processed

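Libraries were made with the 10x Genomics 3′ v3 kit from haematopoietic-depleted femur and tibia cells. The deposited counts are UMI counts per gene and barcode, made by the authors with Cell Ranger 6.1.2, with mm10 and Seurat 4.3 named in the submitters' processing notes and one matrix per mouse. How strand was used in counting is not given in the sources used here. Samples were grouped by the genotype and age in their labels. The members and all gene lists were chosen with earlier results of these data known.

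Cells with 200 to 6000 genes and up to 10% mitochondrial UMIs were kept, and 9.67 to 11.33% per library were removed as doublets by their likeness to simulated doublets, with a rate of 8e-06 per barcode. Kept cells had a median of 6476 to 12365 UMIs per library, and 10 to 25 barcodes were shared by any pair of libraries. Libraries were integrated by reciprocal PCA in Seurat 5.3.0 (2000 variable genes without the members and Sox4, Sox11 and Sox12, 30 components, 5 anchors) and clustered with leidenalg 0.10.2 on a shared-neighbour graph (20 neighbours, resolution 1, 32 clusters), a graph settled on after another was seen to merge Lepr+ OP and preOB. Clusters were named after the marker list whose genes had the greatest mean log2 fold over other clusters, given at least 3 enriched markers. Where that list was Lepr+ OP or preOB, the cluster was called Lepr+ OP if a set share of the Lepr+ MSC markers was enriched, and preOB otherwise. A cluster whose leading genes came more from an unrelated list was left unnamed. Clusters with median UMIs below 33.3% of the library median (11 clusters, 11306 cells) were kept out. Names may differ from the study's own.

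For each mouse, the UMIs of a cell type (10 or more cells) were added up and tested with edgeR 4.0.16 (TMM, filterByExpr, quasi-likelihood test, 1 model of 4 groups with 2 mice each and 4 residual degrees of freedom) in R 4.3.3, with Benjamini-Hochberg adjustment over all genes of a type and a threshold of 0.05. DESeq2 1.42.0 gave a second test on the same sums. A control and a mutant with one age and replicate number deviated from their group means together (r of 0.108 to 0.678 across genes, other than −0.173 in GPC-like cells at 13 weeks). The study describes its mice as control and mutant sisters in pairs, without tying a pair to a replicate number. The numbers were therefore taken as pairs in 8 of the 9 types, from the data and not from a statement in the labels, and a fit with the pair as a block was the alternative. With 2 mice a group, the opposite pairing gives the same r with its sign reversed. Replicate number also goes with library depth, so the 2 cannot be told apart. The block absorbs age, so the ages have no such fit. Nothing in the labels pairs the ages. Genes were named as the 10 members, each called gene of a list of 38 relatives, receptors and partners (at most 6 a type) and the 3 genes most alike. The model was checked on simulated counts. Free RNA was set against each type as UMIs per erythroid or haematopoietic progenitor-like cell over UMIs per cell of the type. UMI counts and floors of 3 UMIs cover counting error only.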

Additional observations from a re-analysis of the deposited data

Results flagged for a closer look

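Of 56 groups of 4 mice in which a member's levels were compared within a genotype, 4 had a mouse whose distance from its nearest neighbour, as a share of the group's whole range, exceeded Dixon's 95% critical value, where chance gives about 1 in 20. Among these 56 the number of such groups is near what chance gives. The 56 are not all groups of a gene, a cell type and a genotype, and that number says nothing of the groups left out. Mice also stood far off in groups outside the 56, which were not measured in this way. An example is Spon1 in mutant GPC-like cells, with 17.1 CPM in 1 mouse and 0.679 to 1.56 CPM in the others. In the 4 flagged groups, control replicate 1 of 13 weeks was the distant mouse in 3. It had 85.9 CPM of Postn in OB-like cells, against 12.7 to 17.2 CPM in the other 3 controls. It had 45.5 CPM of Thbs4 in preOB-like cells, against 1.06 to 4.49 CPM, and 6.55 CPM in Lepr+ OP-like cells, where the other controls had no UMI. The ages differ within these groups of 4, and at 13 weeks mutant replicate 1 also had more Thbs4 in preOB-like cells than either replicate 2. In the fourth group, mutant replicate 2 of 7 weeks had 1792 CPM of Thbs2 in Sca1+ MSC-like cells, against 1132 to 1193 CPM in the other mutants, while a control reached 1580 CPM. By edgeR's quasi-likelihood test no member passed for a difference between the ages in the effect of genotype.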

How the results depend on the processing

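For mutant against control averaged over both ages, the count of member and type pairs called was 0, and it was 1 with DESeq2, 9 without a filter on low counts, 9 with the replicate block and 0 to 8 with a mouse left out, 8 of them without control replicate 2 of 13 weeks. At 7 weeks it was 0, or 5 without the filter, 1 with the replicate block and 0 to 0 with a mouse left out. At 13 weeks it was 0, or 1 with DESeq2, 11 without the filter, 6 with the replicate block and 0 to 4 with a mouse left out, the highest again without control replicate 2 of 13 weeks. For the difference between the ages it was 0, or 1 with DESeq2, 5 without the filter, 0 with the block and 0 to 1 with a mouse left out. For 13 against 7 weeks it was 12, or 23 without the filter, 7 at the 5% mitochondrial limit, 5 of 60 pairs with the members among the clustering genes, 4 of 59 without integration and 5 to 13 with a mouse left out, where 6 remained without control replicate 2 of 7 weeks, 5 without mutant replicate 2 of 7 weeks and 7 without mutant replicate 2 of 13 weeks. Lepr+ OP and preOB fell in 1 cluster under the last 2 clusterings, which gave no value for them. Without control replicate 1 of 13 weeks, Postn in OB-like cells turned from lower to 0.03 averaged and 0.26 at 13 weeks on the log2 scale, and over the mice left out it ran from −1.22 to 0.03 averaged and from −2.24 to 0.26 at 13 weeks. Over all genes in OB-like cells the averaged test called 193, or 1156 with the block, 765 without the filter and 364 with DESeq2. In Sca1+ MSC-like cells it called 58, or 338 without the filter, and in pericyte-like cells 2, or 44. Between the ages 251 genes were called in preOB-like cells, or 509 without the filter. Counts over all genes also changed with the mouse left out, so these member counts are no result about the members. The highest type stayed the same for 9 or 10 of the 10 members under the other settings and for 8 to 10 with a control left out. RLE scaling, resolution 1.5 and the added clusters with few UMIs kept all counts within 1.5 times, with 12, 10 and 13 calls between ages. Sca1+ MSC-like and pericyte-like sums rested on as few as 33 and 46 cells a mouse, and 10 of 90 pairs had too few counts for a test.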

Other observations

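A cluster of 411 cells with the markers of proliferating preosteoblasts was kept out of the named types, since its cells had few UMIs. It held 19 to 114 cells per mouse, and its levels carry no test. Tnc was high in every mouse, at 871 to 4015 CPM, and Postn was 105 to 1175 CPM. Thbs4 was 0, 1.33, 0 and 0 CPM at 7 weeks and 80.3, 26.3, 823 and 19.9 CPM at 13 weeks (control replicates 1 and 2, then mutant replicates 1 and 2), so that every older value was above every younger one. The older mouse at 19.9 CPM had 22 cells, and the younger mice at 0 had 33, 19 and 32. With so few cells of few UMIs, a value of 0 does not show that the gene was absent. No share of free RNA was worked out for this cluster. Mutant replicate 1 of 13 weeks had the highest Thbs4, and also the highest Tnn (370 CPM against at most 111 CPM), Thbs2 (233 CPM against at most 55.7 CPM), Thbs3 (89.5 CPM against at most 28.7 CPM) and Cthrc1 (603 CPM against at most 264 CPM). The same mouse had the most Thbs4 and Cthrc1 in Sca1+ MSC-like cells. Thbs1 was 153 to 370 CPM in the controls and 52.5 to 129 CPM in the mutants of this cluster, with no overlap.

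In GPC-like cells, mutant replicate 2 of 7 weeks had 29.2 CPM of Postn, 10.2 CPM of Tnn and 12.2 CPM of Thbs2, where the other 7 mice had at most 5.51, 3.64 and 4.45 CPM. Mutant replicate 2 of 13 weeks had 17.1 CPM of Spon1 and 12.3 CPM of Thbs4 in GPC-like cells, where the others had at most 2.66 and 4.4 CPM.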
